A study of Rattus norvegicus with 6 samples.

Results

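The ATP-binding cassette (ABC) transporters of the rat liver are described here through every probe set whose platform annotation gave exactly 1 gene symbol of the subfamilies Abca to Abcg. A probe set is the group of short probes that reads 1 transcript on an Affymetrix array. The rule gave 50 probe sets for 37 genes, out of 31042 probe sets and 14217 genes tested. Liver RNA of male Wistar rats was measured on 6 arrays, 3 for the control diet (15P) and 3 for an isoenergetic low-protein diet (5P). The rats were 6 weeks old and about 150 g when bought, had 4 days on pellets, and then learned over 4 days to eat the 15P diet in a daily window. Both groups then ate their assigned diet for 8 hours and were starved for 16 hours before the liver was taken, so all samples come from fasted animals. Whether every array holds RNA of its own animal is not spelled out in the labels, so the spread behind the p-values may in part be technical. In whole liver, fewer cells of a type and less RNA per cell cannot be told apart.

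ABC transporters bind and hydrolyse ATP to move substrates across a membrane, and a few members that lack a membrane part act in translation instead. In hepatocytes the canalicular members pump bile salts, phospholipid, conjugated anions and drugs into bile, and the basolateral members send anions back to blood. A sterol group exports cholesterol, by Abcg5 and Abcg8 into bile and by Abca1 onto apolipoprotein A-I, and a peroxisomal group brings very long chain fatty acyl-CoA into peroxisomes for oxidation. Genes were placed in these 4 roles and in mitochondrial, endolysosomal, soluble, channel regulator and other roles from textbook knowledge. Abcg5 and Abcg8, which work at the canaliculus, were counted once, with the sterol group.

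Of the 50 probe sets 1 passed the test, that of Abcc2, which fell in low-protein livers. The test was limma's, with a Benjamini-Hochberg adjusted p under 0.05 over all probe sets, a threshold that 0.132% of all probe sets passed. No member passed the test as higher in low protein. The family's median was close to that of all genes: 21 of its 37 genes were higher and 16 lower (8193 of 14217 genes were higher over all), with a median log2 fold change (low protein minus control) of 0.03, against 0.03 over all 14217 genes. Here a gene stands for its probe set of highest mean. The 3 arrays of each diet did not overlap for 13 of the 37 genes, 7 higher and 6 lower in low protein, a share of 35.1% against 22.9% of all genes. The split of 21 to 16 became 18 to 19 with arrays centred on their medians. A difference above 0.5 in either direction on the log2 scale was found for 5 of the 37 genes (Abcc2, Abca1, Abca8a, Abcc9 and Abcb9), or 13.5%, against 3.89% of all genes.

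**Figure D1:**
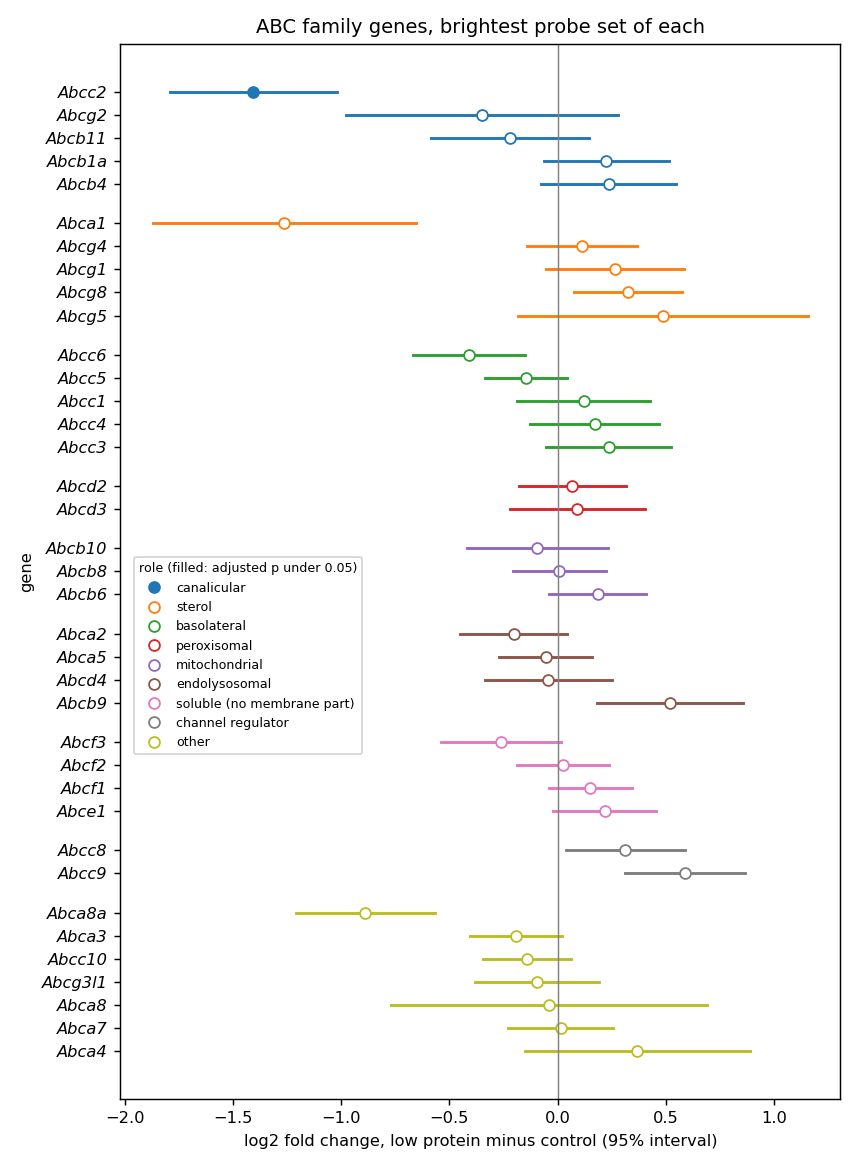
Log2 fold change (low protein minus control) with its 95% interval for the 37 ABC family genes, each by its brightest probe set, grouped by role; filled points passed the test at an adjusted p under 0.05. Abcc2 at -1.41 is the only filled point, Abca1 and Abca8a lie next to it at -1.26 and -0.89, and Abcc9 at 0.59 is the highest.

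Among the canalicular genes, Abcc2 was 2.65-fold lower in low-protein livers, while for the bile salt and phospholipid pumps the arrays of the diets overlapped. Abcc2 encodes MRP2, which carries glutathione, glucuronide and bilirubin conjugates into bile. It read 10.84, 11.36 and 11.19 (log2 intensity) on control replicates 1 to 3 and 9.87, 9.42 and 9.88 on low-protein replicates 1 to 3. Every low-protein array lay below every control array, with a gap of nearly a log2 unit between the nearest arrays. The log2 fold change was -1.41 (95% interval -1.79 to -1.02, SE 0.17, adjusted p = 0.0375). By p-value Abcc2 ranked 20 of 31042 probe sets, and by size of difference 48. The fall kept its size when any array was left out (-1.55 to -1.25), but its adjusted p was over the threshold when control replicate 2 was left out (0.112) or low-protein replicate 1, 2 or 3 (0.0913, 0.0648 and 0.0718).

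The bases before the Abcc2 start are shown because it is the member that passed, from RefSeq's GRCr8 table (chr1:252613625-252613874, plus strand, ending at the base before the annotated start). Capitals mark matches on either strand to AGGTCA, the core letters bound by nuclear receptors, and to GGGCGG, the GC box.
Abcc2: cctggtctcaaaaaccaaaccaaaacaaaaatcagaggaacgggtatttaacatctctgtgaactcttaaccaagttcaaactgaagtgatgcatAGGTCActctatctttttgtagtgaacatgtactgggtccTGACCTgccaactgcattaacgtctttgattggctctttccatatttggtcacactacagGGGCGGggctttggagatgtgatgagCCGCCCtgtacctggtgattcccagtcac
AGGTCA was found in 5 of the 30 family members with a promoter in that table (Abcb6, Abcb8, Abcc2, Abcd2 and Abcg4), and in 14.1% of all 33469 promoter windows of 250 bases. GGGCGG was found in 21 of the 30 and in 30.5% of all windows. The 7 members with no entry were Abca8a, Abcb11, Abcc3, Abcc5, Abcc8, Abcf1 and Abcg1. A match describes the letters and is not evidence of binding.

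Abcb11, the bile salt export pump BSEP, read 10.99, 11.20 and 10.88 in controls and 11.09, 10.84 and 10.48 in low protein. The groups overlapped, and the log2 fold change was -0.22 (-0.58 to 0.15, adjusted p = 0.547). Abcb4, the flippase that supplies phosphatidylcholine to bile, read 8.12, 8.01 and 8.23 against 8.65, 8.18 and 8.24. Its low-protein arrays overlapped the controls, with replicate 1 the highest, and the log2 fold change was 0.24 (-0.08 to 0.55, adjusted p = 0.445). Abcg2, the drug and urate exporter BCRP, was the most scattered canalicular gene, at 7.54, 8.42 and 7.35 against 7.59, 7.04 and 7.64. Control replicate 2 stood highest, and the log2 fold change of -0.35 (-0.98 to 0.28) became -0.025 without it.

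Abcb1a encodes a P-glycoprotein, an exporter of drugs and other lipophilic compounds. It gave 7.57, 7.57 and 7.76 in controls and 7.75, 8.11 and 7.71 in low protein, a log2 fold change of 0.23 (-0.06 to 0.51, adjusted p = 0.431). Its dimmer probe set gave 0.06, and a probe set that the annotation shares between Abcb1a and Abcb1b, which is outside the rule, gave 0.19 (SE 0.10). In all 3 probe sets the arrays of the diets overlapped. With Abcc2 the 5 canalicular genes had a median log2 fold change of -0.22, and the other 4 without it had 0.003.

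In the sterol group, Abca1 was lower on every low-protein array by all 4 of its probe sets, without passing the test, and the other 4 genes were slightly higher. Abca1 is the sterol and phospholipid exporter that starts HDL particles. The brightest probe set read 9.90, 9.98 and 8.85 in controls and 8.20, 8.36 and 8.38 in low protein. Control replicate 3 lay more than a log2 unit below the other controls and nearer to the low-protein arrays, though still above them. The log2 fold change was -1.26 (-1.87 to -0.66, SE 0.27, adjusted p = 0.0976), or 2.40-fold lower.

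The other 3 Abca1 probe sets differed in how far control replicate 3 lay below the other controls. Probe set 1394490_at read 7.34, 7.22 and 5.96 in controls and 5.40, 5.13 and 5.61 in low protein, with a log2 fold change of -1.46 (adjusted p = 0.11) and control replicate 3 again more than a log2 unit below the other controls. Probe set 1383355_at read 8.78, 8.43 and 8.88 against 8.14, 8.18 and 8.41, a log2 fold change of -0.45 (adjusted p = 0.183), with control replicate 3 the highest array. Probe set 1384381_at read 6.31, 6.36 and 6.17 against 5.71, 5.61 and 6.02, a log2 fold change of -0.50 (adjusted p = 0.13), with control replicate 3 the lowest control by a small margin. In none of the 4 did the diets overlap; over all probe sets 9.12% had low-protein arrays wholly below the controls. The 4 share 1 gene and the same samples, so they are not separate evidence.

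**Figure D2:**
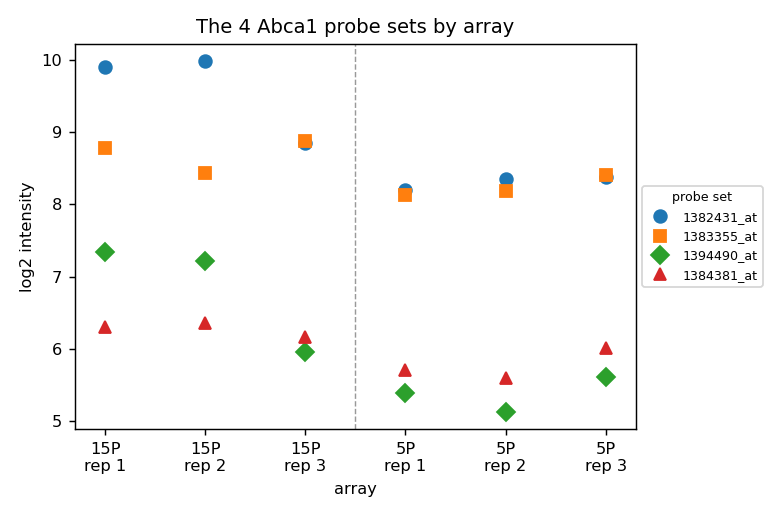
Log2 intensity of the 4 Abca1 probe sets on the 3 control (15P) and 3 low-protein (5P) arrays, 1 marker shape per probe set. Low-protein arrays lie below the controls in each; 1382431_at and 1394490_at drop on control replicate 3 (8.85 and 5.96), while 1383355_at and 1384381_at stay near the other controls (8.88 and 6.17).

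Without control replicate 3, the brightest Abca1 probe set had a log2 fold change of -1.63 (adjusted p = 0.00886) and 1394490_at had -1.90 (adjusted p = 0.0125), so both then passed, as Abcc2 did (-1.38, adjusted p = 0.0495). In 4 of the other 5 fits that left out an array no family probe set passed, and in the fit without control replicate 1 only Abcc2 did. Over all 18 alternatives the adjusted p of Abca1 ran from 0.00886 to 0.248. Control replicate 3 also stood apart over all probe sets, with a first principal component score of -10.1 against -26.9 and -22.5 for the other controls and 17.3 to 22.6 in low protein. Macrophages also express Abca1. The mean of 8 measured macrophage markers (of 10 listed) was -0.24 on that array relative to the control mean, and 0.09 and 0.15 on control replicates 1 and 2. The macrophage mean level ran from 8.14 to 8.53 in controls and from 8.42 to 8.75 in low protein. The dip on control replicate 3 was not particular to macrophage markers. The mean of 5 measured endothelial markers (of 7 listed) was -0.19 on that array, and 0.095 and 0.092 on control replicates 1 and 2. The part of either cell type in the Abca1 values was not tested.

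The upstream bases of Abca1 are shown because all of its probe sets were lower (GRCr8, chr5:72596564-72596723, minus strand, stopping at the outermost annotated base of the gene). Capitals mark GGGCGG and the E-box CACGTG.
Abca1: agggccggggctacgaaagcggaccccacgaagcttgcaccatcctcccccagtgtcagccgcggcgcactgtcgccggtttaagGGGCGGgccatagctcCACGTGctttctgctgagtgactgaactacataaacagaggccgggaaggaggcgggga
CACGTG was found in 2 of the 30 family promoters, Abca1 and Abcb6, and in 5.59% of all windows. A direct repeat to which the sterol-sensing receptor LXR is known to bind in this gene was searched as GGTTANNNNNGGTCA on both strands. Because these letters describe a site already known in this gene, a match in Abca1 was foreseen and is not evidence of binding. The repeat was found once in the family, 56 to 70 bases before the Abca1 start given by the table (chr5:72596529-72596543, minus strand). Of all windows 0.0448% hold the repeat. The Abca1 site lies before that start but within the outermost annotated base of the gene, so it is not part of the stretch printed above. Its letters on the gene's strand, with the repeated parts in capitals, are as follows.
Abca1 direct repeat: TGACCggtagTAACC

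Abcg5 and Abcg8 together form the pump that secretes cholesterol and plant sterols into bile. Abcg5 read 6.61, 7.06 and 6.82 in controls and 7.24, 6.69 and 8.02 in low protein. Low-protein replicate 3 was far the highest, replicate 2 lay among the controls, and the log2 fold change of 0.49 (-0.18 to 1.16, adjusted p = 0.463) was 0.14 without replicate 3. Abcg8 read 3.38, 3.39 and 3.62 in controls and 3.91, 3.65 and 3.80 in low protein. Its groups did not overlap, and the log2 fold change was 0.33 (0.08 to 0.58, adjusted p = 0.218). Its mean intensity stood at the 22.2 percentile of all probe sets, where a difference is measured on dim signal. On low-protein replicate 3, where Abcg5 was highest, Abcg8 was between the other low-protein arrays.

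These genes lie head to head with 0 protein-coding genes and 205 bases between their starts, and that stretch is shown because both read higher on average (GRCr8, chr6:15717731-15717935, plus strand, the Abcg5 strand). Capitals mark TATAAA and GATAAG, the core letters of a TATA box and of a GATA site.
Abcg8-Abcg5: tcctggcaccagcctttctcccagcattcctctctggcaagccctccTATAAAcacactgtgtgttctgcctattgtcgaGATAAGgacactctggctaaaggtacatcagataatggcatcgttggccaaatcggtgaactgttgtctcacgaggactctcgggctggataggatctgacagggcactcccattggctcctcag
TATAAA was found in 4 of the 30 family promoters (Abca1, Abcd4, Abcg5 and Abcg8) and in 12.9% of all windows, and GATAAG in 3 (Abcb8, Abcg5 and Abcg8) and 6.18%. Abcg5 and Abcg8 share these matches because their windows overlap. Of other neighbours in the family, Abca8 and Abca8a, with 0 protein-coding genes between them, had log2 fold changes of -0.04 and -0.89, and Abcb4 and Abcb1a, with 1 between, had 0.24 and 0.23.

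Abcg1, which passes sterols from cells to HDL, read 7.35, 7.27 and 6.84 in controls and 7.51, 7.34 and 7.41 in low protein. Control replicate 3 was the lowest of the 6 arrays, and the groups overlapped. Its 3 probe sets had log2 fold changes of 0.27, 0.22 and 0.16, with an adjusted p = 0.402 for the brightest. Abcg4, a brain sterol exporter, read between 4.25 and 4.42 in controls and between 4.26 and 4.60 in low protein, with a log2 fold change of 0.11. The sterol group had a median of 0.27 over its 5 genes and 0.30 over the 4 without Abca1.

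**Figure D3:**
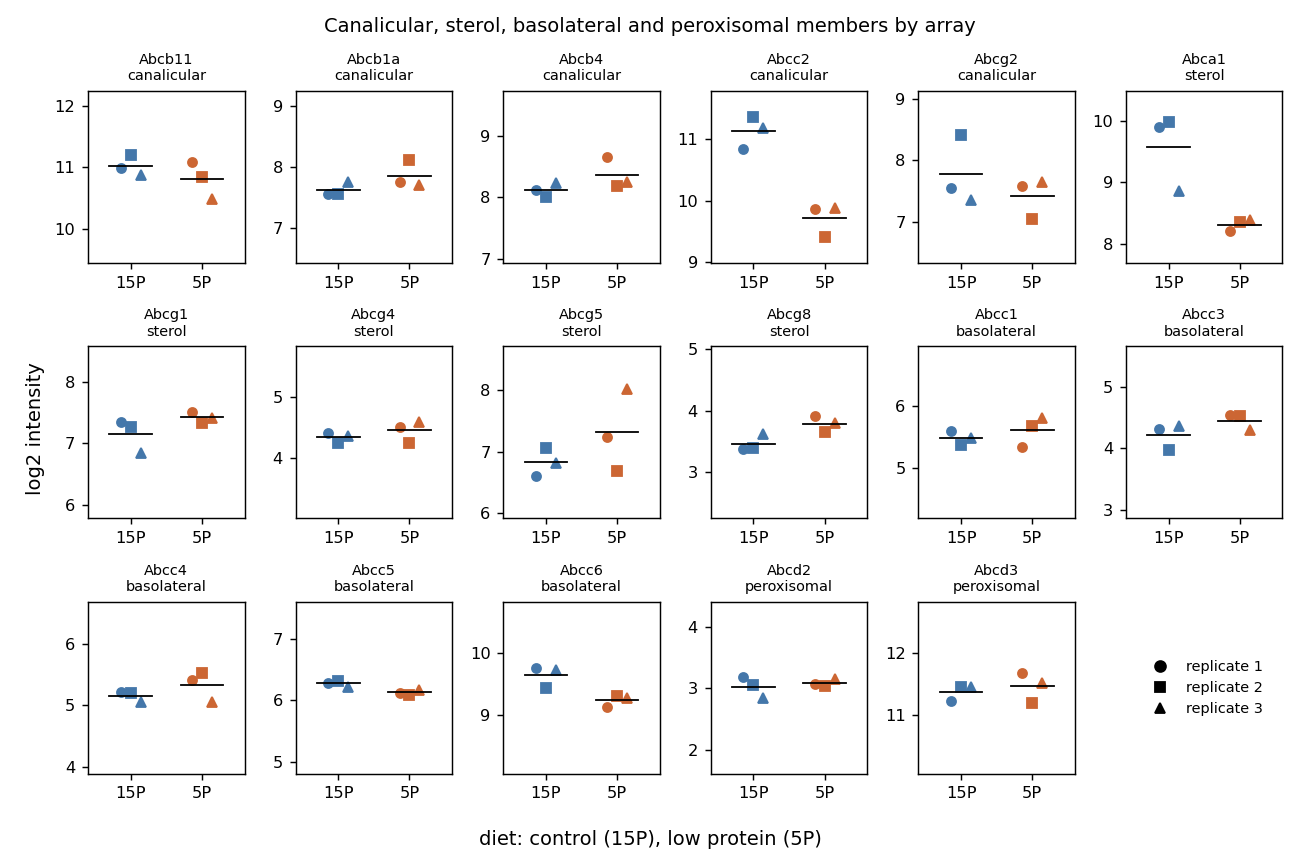
Log2 intensity of the 17 canalicular, sterol, basolateral and peroxisomal genes on the control (15P, blue) and low-protein (5P, orange) arrays, with symbols for replicates, bars for means, and the same span on every vertical axis. The diets separate widely for Abcc2 (controls 10.84 to 11.36, low protein 9.42 to 9.88), while for Abcb11, Abcb4 and Abcd3 they overlap.

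The basolateral genes showed no call. Abcc6, an exporter of hepatocytes whose loss causes ectopic calcification, read 9.75, 9.43 and 9.73 in controls and 9.12, 9.30 and 9.27 in low protein. All low-protein arrays were lower, and the log2 fold change was -0.41 (-0.67 to -0.15, adjusted p = 0.162). Abcc5, an exporter of cyclic nucleotides among other anions, was also separated, at 6.29, 6.32 and 6.22 against 6.13, 6.09 and 6.17, by only -0.15 (-0.34 to 0.04). Its dimmer probe set had -0.06 and overlapped.

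Abcc3 and Abcc4 encode MRP3 and MRP4, which export conjugates and bile acids to blood. Abcc3 read 4.31, 3.98 and 4.36 in controls and 4.54, 4.52 and 4.29 in low protein, a log2 fold change of 0.24 (-0.05 to 0.53, adjusted p = 0.411) on a signal at the 36.7 percentile of all probe sets. Abcc4 read 5.21, 5.21 and 5.05 against 5.41, 5.52 and 5.05, or 0.17 (-0.13 to 0.47, adjusted p = 0.567). For both, 1 low-protein array lay within the control range and the groups overlapped. Abcc1, the broad anion exporter MRP1, had 0.12 (-0.19 to 0.43). The interval of Abcc3 does not reach that of Abcc2 (-1.79 to -1.02), the canalicular pump for the same kind of conjugates. The same holds for most family genes, among them Abcb11, Abcb4 and Abcg2, so it is not particular to Abcc3. The difference between Abcc2 and Abcc3 was not tested. The 5 basolateral genes had a median of 0.12.

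The peroxisomal genes differed by less than the spread between arrays. Abcd3 encodes PMP70, an abundant protein of the peroxisomal membrane. It read 11.22, 11.45 and 11.45 in controls and 11.68, 11.20 and 11.51 in low protein, with the lowest and the highest of the 6 values both in low protein. Its log2 fold change was 0.09 (-0.22 to 0.40, adjusted p = 0.796) and turned to -0.019 without low-protein replicate 1. Abcd2, which imports very long chain acyl-CoA, read from 2.84 to 3.18 in controls and from 3.04 to 3.16 in low protein, at the 10.9 percentile of all probe sets. Its log2 fold change was 0.07 (-0.18 to 0.31) and turned to -0.025 without control replicate 3.

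**Figure D4:**
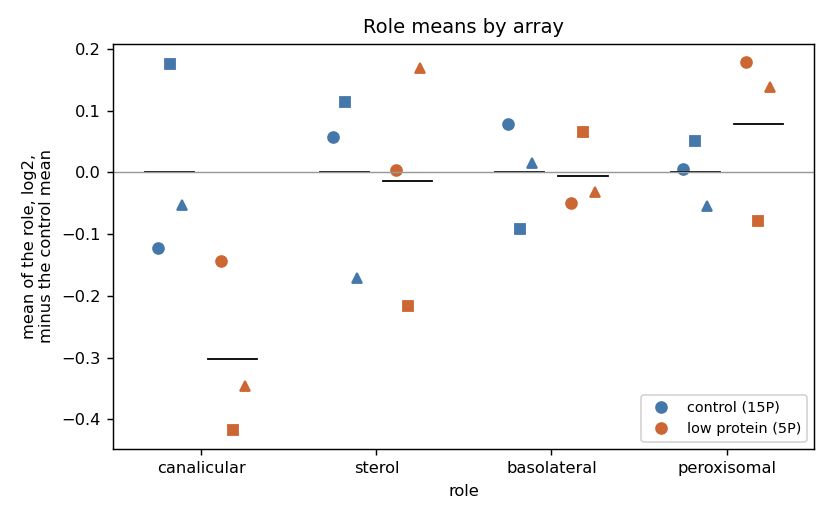
Mean log2 intensity over the genes of each of the 4 main roles on every array, minus the mean of the 3 control arrays; circles, squares and triangles are replicates 1, 2 and 3, and bars are group means. The canalicular mean is lowest on low-protein replicates 2 and 3 (-0.42 and -0.35), with low-protein replicate 1 at -0.14 beside control replicate 1 at -0.12.

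Set side by side, the canalicular mean lay lower on every low-protein array, by a narrow margin, and the means of the other 3 roles overlapped between diets. The canalicular mean, relative to the controls, was -0.14, -0.42 and -0.35 on low-protein replicates 1 to 3 and -0.12, 0.18 and -0.05 on the controls. It includes Abcc2, without which the role's median was 0.003. The sterol mean ran from -0.22 to 0.17 in low protein and from -0.17 to 0.11 in controls, with Abca1 and the other members in opposite directions. The basolateral mean ran from -0.05 to 0.07 against -0.09 to 0.08. The peroxisomal mean ran from -0.08 to 0.18 against -0.06 to 0.05. No test was made on these means.

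Outside the 4 roles there were 20 genes, none past the test, with 10 higher, 10 lower and a median of -0.02. The nearest to the threshold was Abca8a, of the lipid-transporting A subfamily. It read 10.78, 10.85 and 10.66 in controls and 9.82, 10.17 and 9.63 in low protein, with nearly a log2 unit between the diet means and no overlap. The log2 fold change was -0.89 (-1.21 to -0.57, SE 0.14, adjusted p = 0.059), or 1.85-fold lower. It passed with a robust prior variance (0.047) and with array weights (0.0455), the range over all alternatives being 0.0455 to 0.17. Its neighbour Abca8 had means of 7.65 ± 0.54 and 7.60 ± 0.56 (SD, n = 3 each).

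Abcc8 and Abcc9 encode the sulfonylurea receptors, which regulate ATP-sensitive potassium channels rather than transport a substrate. Abcc9 read 8.14, 7.87 and 8.24 in controls and 8.60, 8.59 and 8.82 in low protein, with every low-protein array higher. Its log2 fold change was 0.59 (0.31 to 0.87, adjusted p = 0.0932), or 1.51-fold. Its other 2 probe sets had 0.28 and 0.14 and overlapped. Abcc8 read 5.90, 6.03 and 6.31 against 6.32, 6.38 and 6.48, a log2 fold change of 0.31 (adjusted p = 0.268), with control replicate 3 just below the lowest low-protein array. Stellate cell markers, 6 of 6 measured, had a mean level of 7.26 to 7.49 in controls and 7.22 to 7.73 in low protein; their part in the Abcc9 values was not tested.

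Abcb9, a peptide transporter of lysosomes, read 3.24, 3.06 and 3.64 in controls and 3.75, 3.93 and 3.82 in low protein. The groups did not overlap, and the log2 fold change was 0.52 (0.18 to 0.86, adjusted p = 0.17) on a signal at the 21.1 percentile of all probe sets. The other 16 genes outside the 4 roles each had an unadjusted p of 0.05 or more, with log2 fold changes from -0.26 (Abcf3, a soluble member of translation) to 0.37 (Abca4). They include the mitochondrial genes Abcb6, Abcb8 and Abcb10, at 0.18, 0.009 and -0.09. Abcb6, a porphyrin transporter, was separated by diet (8.11, 8.16 and 8.07 against 8.19, 8.46 and 8.25). Red cell markers, 5 of 8 measured, moved with it, with a mean level of 5.99 to 6.06 in controls and 6.22 to 6.43 in low protein and 4 of 5 higher; their part in the result was not tested. Abce1, which recycles ribosomes, had 0.22 (-0.02 to 0.46), and Abcf1, which acts in translation initiation, had 0.15 (-0.04 to 0.34), both without overlap of the diets. Abcf2 and the dimmer Abcf3 probe set lay at 0.03 and -0.02.

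Genes around the transporters were taken from lists of their regulators and partners. Of 17 measured transcriptional regulators (of 18 listed), none passed in limma's test or reached an unadjusted p under 0.05, a level that 16.4% of all genes reached; an adjusted p under 0.05 was reached by 0.183% of all genes. They include the bile acid receptor gene Nr1h4 (log2 fold change -0.09), the LXR gene Nr1h3 (0.11), the drug receptors Nr1i2 (-0.05) and Nr1i3 (0.18), and Nfe2l2 (-0.36, adjusted p = 0.359), named after their values were seen. The list median was -0.03.

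Of 18 measured partners in bile formation and sterol transport (of 23 listed), none passed in limma's test, and 3 had an unadjusted p under 0.05, all lower. Over all genes 16.4% reached that level, a share close to that of this list. Slco1a1, an organic anion uptake carrier, read 9.85, 9.97 and 9.98 in controls and 9.38, 9.63 and 9.48 in low protein. The groups were apart, with a difference of -0.44 on the log2 scale (SE 0.098, adjusted p = 0.107). Npc2, a lysosomal sterol-binding protein, had -0.31 (adjusted p = 0.242) and Tmem30a, the partner of phospholipid flippases, had -0.34 (adjusted p = 0.246). The bile acid uptake carrier gene Slc10a1 had -0.09 and Apoa1, the acceptor of Abca1's lipid, had -0.19, also named after their values were seen. The list median was 0.01.

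Of 12 measured genes of peroxisome assembly and oxidation (of 14 listed), none passed in limma's test, and 3 had an unadjusted p under 0.05, all higher. That level was reached by 16.4% of all genes, and the list as a whole was not tested. Pex3 and Pex19 insert membrane proteins, among them Abcd3, into peroxisomes. Pex3 read 7.24, 7.29 and 7.50 in controls and 7.65, 7.61 and 7.74 in low protein, a log2 fold change of 0.32 (adjusted p = 0.192) with no overlap. Pex19 had 0.31 (adjusted p = 0.253). Crat, the carnitine acetyltransferase, read 6.65, 7.59 and 8.08 against 8.83, 7.92 and 8.61; the groups overlapped, and the log2 fold change was 1.01 (adjusted p = 0.235). The list median was 0.07.

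The labelled tissue was checked against its markers. The hepatocyte genes, 6 of 7 measured, had mean log2 levels of 13.42 to 13.52 in controls and 13.38 to 13.50 in low protein, with 3 of 6 lower. Among them Cps1, a urea cycle enzyme named after its values were seen, read 13.19, 13.37 and 13.20 in controls and 13.06, 13.05 and 12.95 in low protein, a log2 fold change of -0.23 (adjusted p = 0.281). Cholangiocyte markers, 5 of 6 measured, had mean levels of 4.85 to 5.29 in controls and 4.77 to 5.08 in low protein, 4 of 5 lower. The mean of the red cell markers given above was higher on every low-protein array than on any control array, but not every marker was. The part of these lists in the Abcc2 result was not tested. Median intensity per array over all deposited probe sets ran from 33.3 to 34.3 on the linear scale, and 3 arrays a diet limit the precision.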

How the data were processed

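Per the labels' protocols, RNA of 6 liver samples was biotinylated with the GeneChip 3' IVT express kit and read on Affymetrix rat arrays. For each probe set and array the authors deposited 1 intensity, which RMA had produced, per the submitters' processing notes; what software ran it is not given in the sources used here. Because this method normalizes between arrays, a change shared by most genes would be largely removed. The deposited intensities were linear, and log2 was taken. No detection calls were used, and dim probe sets were kept; 39 of the 50 family probe sets had a mean above the median of all probe sets. Of 31099 probe sets, 57 Affymetrix controls were left out. Gene symbols are those of GEO's platform annotation, possibly dated; the gene IDs of all 37 family genes matched the RefSeq table of GRCr8 with 0 symbols changed. The 2 family probe sets with several symbols were outside the rule.

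Diets were compared with limma 3.58.1 in R 4.3.3 (two-sided moderated test from lmFit and eBayes, 8.38 total degrees of freedom, Benjamini-Hochberg over 31042 probe sets). SE and 95% intervals are the moderated ones. A gene stands for its probe set of highest mean. On simulated data of this comparison with 31042 probe sets, 96 of 100 changed by 1 (log2) and 99 of 100 changed by 2 were recovered, with 14 false calls. The simulated noise was normal and independent, without outlying arrays, so recovery on the real arrays may be lower. It was drawn at the moderated variance, and the number of changed probe sets, which affects the adjusted p, was set by hand. On the real arrays 41 probe sets passed, although Crat, at a log2 fold change of 1.01, ranked 134 by size of difference. Abca1 at -1.26 did not pass. The simulation therefore does not give the share of real changes of 1 that would pass. A gene that did not pass may still have changed. The members, roles and lists were chosen with earlier results of these data known. Named are all genes of the 4 main roles, and elsewhere genes past the test or with an unadjusted p under 0.05; others that are named complete the account of the family or were chosen after their values were seen. Alternatives were other prior variances, rescaling of arrays, intensity filters, array weights, a replicate block, omission of single arrays, and other choices of a gene's probe set. Promoters came from RefSeq's GRCr8 table. Figures were drawn with matplotlib 3.10.9.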

Additional observations from a re-analysis of the deposited data

How the results depend on the processing

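Of the 27 genes named by the rule, 2 changed direction under an alternative, Abcd2 and Abcd3, for which omission of single arrays gave -0.025 to 0.15 and -0.019 to 0.22. Over the 37 family genes, 8 changed sign under at least 1 alternative: these 2 and Abca7, Abca8, Abcb8, Abcb10, Abcd4 and Abcf2. Abcc2 passed in 13 of 18 alternatives (adjusted p from 0.0283 to 0.112) and in 2 of the 6 that left out an array. The count of family genes past the test, 1 as reported, was 2 with a robust prior variance and 2 with array weights (Abcc2 and Abca8a in both), and 0 to 2 over the left-out arrays; for family probe sets it was likewise 2 and 2, and 0 to 3. The main fit did not treat replicate numbers as pairs. Deviations from the group means correlated at -0.087, -0.027 and -0.102 for the same numbers, and at -0.071 to 0.147 for different numbers. With 3 arrays a diet, these values cannot settle whether the samples are paired. With the replicate block the family count was 0 for genes and 0 for probe sets, 6 probe sets passed in all, and Abcc2 had an adjusted p = 0.103. The 3 partner lists had 0 genes past the test under every alternative.

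Over all probe sets the count of 41 became 103 with a robust prior variance, 78 with arrays centred on their medians, 102 with array weights, and 16 to 109 over the left-out arrays. The share of calls that were higher was 26.8% as reported, 16.7% with median centring and 40.7% with centring on the 75th percentile. Role medians moved by more than the array spread in these cases. The canalicular median ran from -0.36 to -0.025 over the left-out arrays and was 0.23 with Abcg5 and Abcg8 counted as canalicular, which left the sterol median at 0.11. The sterol median ran from 0.13 to 0.31, and the basolateral one from 0.017 to 0.18, over the left-out arrays. The basolateral median was -0.013 with the filter at the 50th percentile, which removed Abcc3. The causes of the other shifts were not tested. Signal limits Abcg8, Abcb9, Abcd2 and Abca4, whose means lay below the 25th percentile of all probe sets.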

Other observations

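By subfamily, 6 of the 8 Abca genes read lower (median log2 fold change -0.12) and 5 of the 7 Abcb genes higher (median 0.18), where the signs of Abca7, Abca8 and Abcb8 turned under at least 1 other scaling of the arrays, while the 9 Abcc genes held both Abcc2 at -1.41 and Abcc9 at 0.59. Over all genes 8193 of 14217 were higher, the subfamilies were not tested, and apart from Abcc2 none of these genes passed the test. The 6 Abcg genes, 4 of them higher, had a median of 0.19. A probe set that the annotation shares between Abcg3l4 and Abcg3l2, rodent relatives of Abcg2, read 9.99, 9.60 and 9.79 in controls and 9.53, 9.70 and 9.44 in low protein, a difference of -0.24 on the log2 scale (SE 0.12, adjusted p = 0.392).

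The neutrophil marker genes S100a8 and S100a9, 2 measured of 4 listed, differed more among the control arrays than any other marker list, with mean deviations of 0.81, 0.009 and -0.81 on control replicates 1 to 3 and -0.34, -0.65 and -0.11 in low protein. Abca1 on the brightest probe set was lowest of the controls on the same array, replicate 3, but was alike on replicates 1 and 2 (9.90 and 9.98).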
